A study of Mus musculus with 19 samples.

Results

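A set of 44 genes of DNA replication and S phase was followed in the 9 embryo livers and 10 tumours of the study. The genes were given by name: the licensing factors, the replicative helicase, the sliding clamp and its loader, the polymerases, the enzymes that make deoxynucleotides, and chromatin and E2F genes of S phase. Every one of the 44 had values both in the embryo table of 13549 genes and in the tumour tables of 17606 genes.

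Before S phase, the origin recognition complex, CDC6 and CDT1 load the MCM2-7 ring onto origins. CDC45 and the GINS complex then turn the ring into the active helicase, and the clamp PCNA holds the polymerases on the template. Many of these genes are transcribed at the G1 to S transition by E2F factors, which the retinoblastoma protein holds back until the cyclin D kinases CDK4 and CDK6 phosphorylate it. In the late fetal liver both hepatoblasts and blood-forming cells divide.

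The study models fibrolamellar carcinoma, a liver cancer that carries a DNAJB1-PRKACA fusion of a chaperone gene with the catalytic subunit of protein kinase A. Livers of mouse embryos at embryonic day 18.5 were compared between 5 embryos labelled control and 4 labelled DNAJ1B-PKA_Overexpression, here called fusion. In the model a DNAJB1-PRKACA-GFP cDNA in the Rosa26 locus is switched on by Alb-Cre, so that the albumin promoter limits it to hepatocytes and their precursors. The alleles that the control embryos carried, their strain and their litters are not given in the sources used here. The second experiment used FL8, a cell line of these models, enclosed in gelatin capsules and implanted under the skin of NSG mice, which lack T, B and natural killer cells. When tumours averaged 75 mm3, mice were randomized to the carrier (vehicle, methocel) or to palbociclib, an inhibitor of CDK4 and CDK6, with 5 tumours in each group. Palbociclib was given by oral gavage at 75 mg/kg for 3 consecutive days, followed by 4 days with no treatment, and how long before collection the last dose was given is not stated. All 10 tumours come from 1 line. The labels do not say which embryos were littermates or whether each tumour came from its own mouse, so p-values measure only the spread between these samples.

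The control regions of these genes were searched for the E2F motif, because E2F factors are the link between CDK4 and CDK6 and this set of genes. RefSeq promoter windows (build GRCm38.p6, from 250 bases before to 50 bases after a start site) were found for 38 of the 44 genes, as 44 windows. No window was found for Mcm4, Gins1, Gins2, Rfc2, Prim2 or Pole. The motif was read as TTTCCCGC, TTTCGCGC, TTTGCCGC or TTTGGCGC on either strand, and matches on opposite strands can overlap. It lay in 15 of the 44 windows (34.1%), against 744 of all 32851 windows (2.26%). The stretches below show it, with the motif in capitals, in 5 of the 12 members described in both experiments by rule and in 4 subunits of the MCM ring that were picked after the search.
Orc1: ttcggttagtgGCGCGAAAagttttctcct
Cdc6: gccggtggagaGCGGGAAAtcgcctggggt
Cdt1: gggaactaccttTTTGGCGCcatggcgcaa
Pola1: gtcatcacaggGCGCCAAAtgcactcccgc
Ezh2: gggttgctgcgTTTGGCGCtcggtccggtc
Mcm3: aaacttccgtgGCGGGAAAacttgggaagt
Mcm5: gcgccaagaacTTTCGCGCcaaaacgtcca
Mcm6: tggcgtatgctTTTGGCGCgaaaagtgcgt
Mcm7: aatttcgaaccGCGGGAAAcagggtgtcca

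Each stretch is written 5′ to 3′ along the strand of its gene. They lie at chr4:108579416-108579445 (plus strand, Orc1), chr11:98908002-98908031 (plus, Cdc6), chr8:122568035-122568064 (plus, Cdt1), chrX:93632275-93632304 (minus, Pola1) and chr6:47595009-47595038 (minus, Ezh2). The MCM stretches lie at chr1:20820275-20820304 (minus, Mcm3), chr8:75109345-75109374 (plus, Mcm5), chr1:128359797-128359826 (minus, Mcm6) and chr5:138172030-138172059 (minus, Mcm7). The motif lay 27 bases before the start site in Orc1 and 138 bases before it in Cdc6 and in Pola1. It lay after the start site in Ezh2 (4 bases) and Cdt1 (33 bases). The Mcm6 window held 3 matches, and those of Mcm3, Mcm5 and Mcm7 held 2 each. Of the other ring subunits, Mcm2 had a window with no match and Mcm4 had no window. The CCAAT box, the site of the factor NF-Y, lay on either strand in 26 of the 44 windows (59.1%), against 37.4% of all windows. The CHR element of mitotic genes (TTTGAA or TTCGAA) lay in 8 (18.2%), against 19.2% of all windows. A match is a description of these letters and not a bound site.

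Library depth was 7.66 to 45.6 M reads (M, 1000000) in the embryo livers and 2.96 to 43.1 M in the tumours, the lowest being vehicle 5. Both genotypes were split by the share of reads from ribosomal protein genes. That share was 9.69% to 10.1% in control 1 and 2 and fusion 8 and 9, called the high-ribosomal set here, and 6.17% to 7.85% in control 3 to 5 and fusion 6 and 7, called the low-ribosomal set. In the low-ribosomal set Xist was at most 0.448 CPM (counts scaled to a total of 1000000) in the 3 controls and at least 246 CPM in both fusion livers, so genotype and sex cannot be told apart there. The high-ribosomal set was also unbalanced, with Xist at 448 and 391 CPM in control 1 and 2, 162 CPM in fusion 8 and 0.534 CPM in fusion 9. Among the controls Xist followed the ribosomal split, so sex and library set cannot be told apart in them. Among the tumours, mitochondrial genes took 46.6% of the reads of vehicle 1 and 1.24% to 6.47% of those of the other 9. Summed erythroid marker levels were 1348 to 96748 CPM in vehicle tumours, the highest being vehicle 3, and 1784 to 8505 CPM in palbociclib tumours. The hepatocyte markers were present in every library, with summed levels of 175180 CPM or more in the embryo livers and of 41275 CPM or more in the tumours.

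The first comparison asks how the replication genes differ between fetal livers with and without the fusion. In the fusion livers 35 of the 44 genes had a log2 fold change above 0, with a median of 0.13, while the median over all 13316 tested genes was -0.01 and 48.3% of them were higher. Mcm4, Ezh2 and Cdc6 rose, and no member fell, at an adjusted p under 0.05 in edgeR's quasi-likelihood test. These 3 of 44 stand beside 12.8% of all tested genes that were called in either direction and 5.99% that were called higher (6.81% lower), so the members' share of calls lay near the background. At an unadjusted p under 0.05, 8 members were higher and 0 lower, against 13.9% and 15.4% of all genes. In 4 members (Mcm4, Ezh2, Pola1 and Pole2) each of the fusion livers exceeded each of the controls, against 8.37% of all genes, and 0 members showed the opposite, against 8.15%. In bulk livers such as these, a difference in the number of dividing cells and a difference in RNA per cell cannot be told apart.

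**Figure D1:**
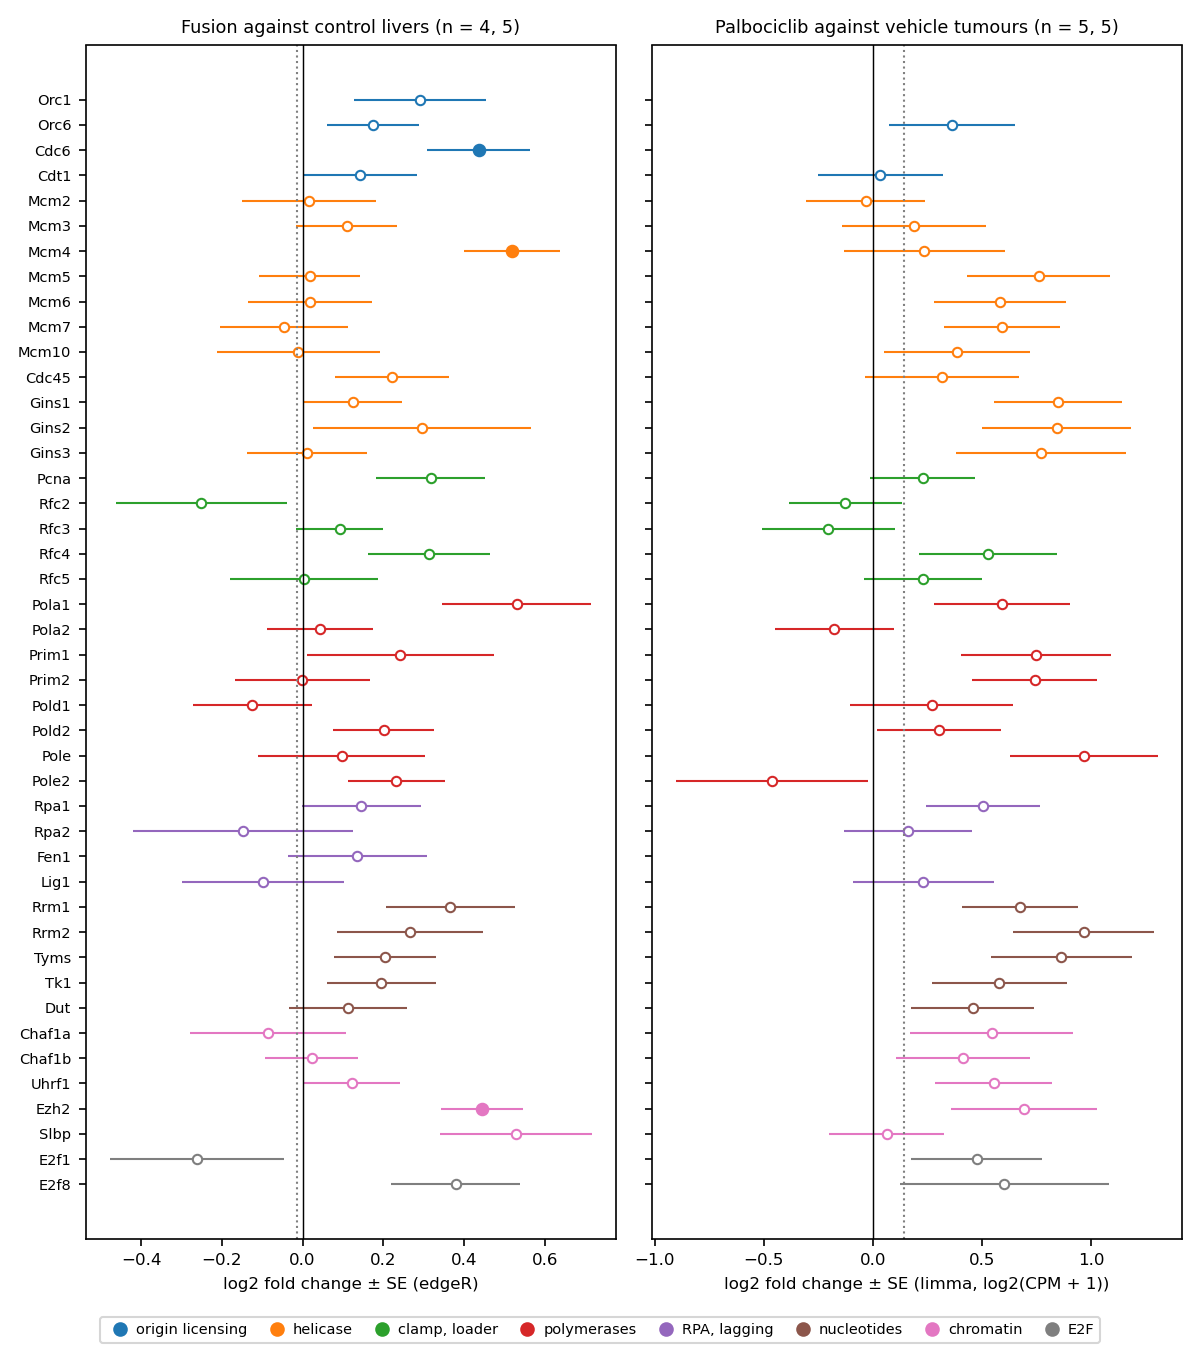
Log2 fold change with its standard error for the replication genes, ordered by role, in fusion against control livers (left, edgeR) and in palbociclib against vehicle tumours (right, limma on log2(CPM + 1)). Filled points passed an adjusted p of 0.05, the dotted line is the median of all tested genes, and Orc1, Cdc6 and Fen1 have no tumour point because they were under 1 CPM. Mcm4, Ezh2 and Cdc6 are the filled points, and none is filled on the right.

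The 4 licensing factors all had a higher mean in fusion livers, with log2 fold changes of 0.14 to 0.44. Cdc6, the ATPase that recruits the MCM ring with CDT1 (ENSMUSG00000017499, chr11:98907801-98923940, plus strand, mm10), was at 32.3, 35.3, 29.7, 40.9 and 35.8 CPM in control 1 to 5 and at 53.2, 45.5, 50.3 and 39.1 CPM in fusion 6 to 9. Fusion 9 lay below control 4, and the other 3 fusion livers lay above every control. The log2 fold change was 0.44 ± 0.13 (SE; adjusted p = 0.0452, edgeR). The call depended on single libraries. It was lost without any one of control 1, 2, 3 or 5 or fusion 6, 7 or 8, with edgeR adjusted p-values up to 0.108. Over all 9 fits that leave out 1 liver the log2 fold change was 0.38 to 0.52.

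Orc1, the largest subunit of the origin recognition complex, was at 12.8, 12.4, 11.5, 17.5 and 18.4 CPM in the controls and 17.3, 16.0, 20.4 and 17.9 CPM in the fusion livers. Control 4 and 5 lay within the fusion range, and its log2 fold change was 0.29 ± 0.16 (SE; adjusted p = 0.263, edgeR). Cdt1, the partner of CDC6 in loading, was at 72.2 ± 13.4 CPM (SD, n = 5) in controls and 79.6 ± 3.82 CPM (SD, n = 4) in fusion livers, all 4 of which lay inside the control range of 56.0 to 90.5 CPM.

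Of the 11 helicase genes, Mcm4 was the 1 that passed the test. This subunit of the ring (ENSMUSG00000022673, chr16:15623897-15637400, minus strand, mm10) was at 72.4, 76, 66.0, 89.5 and 83.8 CPM in control 1 to 5 and at 108, 104, 121 and 111 CPM in fusion 6 to 9. All fusion livers lay above all controls. The log2 fold change was 0.52 ± 0.12 (SE; adjusted p = 0.0165, edgeR), and it was 0.48 to 0.57 when each library was left out in turn.

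The other subunits of the same ring had values near 0. Mcm2, Mcm3, Mcm5, Mcm6 and Mcm7 had log2 fold changes of -0.05 to 0.11, each smaller than its standard error and each with overlapping groups. Mcm2, for example, was at 162 ± 38.2 CPM (SD, n = 5) in controls and 164 ± 1.06 CPM (SD, n = 4) in fusion livers, with control 1 and 2 above and control 3 to 5 below all fusion livers. Whether Mcm4 differs from the other subunits in its response was not tested. Cdc45, which joins the ring to form the active helicase, was at 30.04 ± 5.78 CPM (SD, n = 5) in controls and 34.9 ± 2.30 CPM (SD, n = 4) in fusion livers. Its log2 fold change was 0.22 ± 0.14 (SE; adjusted p = 0.325, edgeR).

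**Figure D2:**
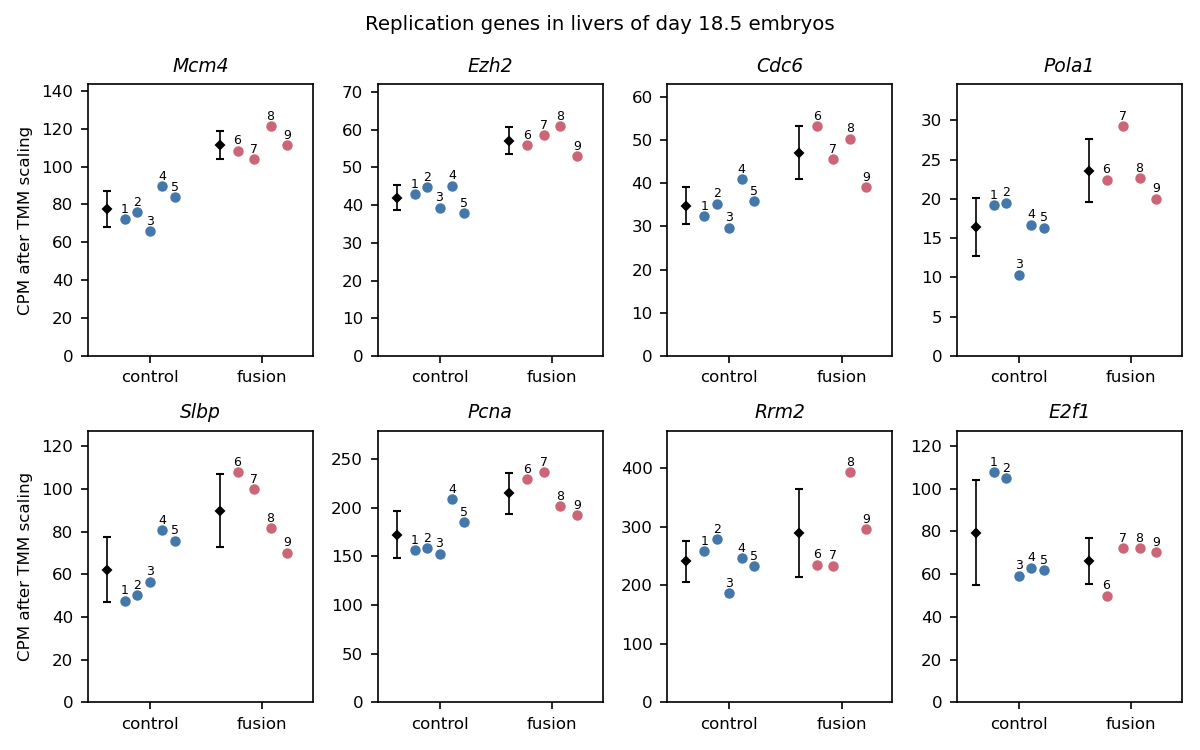
Level of 8 replication genes in each embryo liver, in CPM after TMM scaling, with library numbers beside the points and, at the left of each group, the mean and SD (control n = 5, fusion n = 4). Mcm4, Ezh2 and Pola1 show no overlap, and in E2f1 control 1 and 2 stand above the other 7 livers.

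Pcna, the sliding clamp, was at 157, 158, 153, 209 and 185 CPM in the controls and 229, 236, 201 and 192 CPM in the fusion livers. Control 4 lay above fusion 8 and 9, and the log2 fold change was 0.32 ± 0.14 (SE; adjusted p = 0.145, edgeR). The clamp loader genes Rfc2, Rfc3, Rfc4 and Rfc5 differed in sign. Rfc4 had a log2 fold change of 0.31 ± 0.15 (SE) and Rfc2 one of -0.25 ± 0.21 (SE), and neither passed the test (edgeR adjusted p = 0.193 and 0.468). For Rfc2, control 1 (125 CPM) and control 2 (133 CPM) stood above the remaining livers, which ranged from 62.2 to 97.2 CPM.

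Among the polymerase and primase genes, Pola1 had the highest log2 fold change of all 44 members. It encodes the catalytic subunit of polymerase alpha, which extends the primers, and was at 19.2, 19.5, 10.3, 16.7 and 16.4 CPM in the controls and 22.5, 29.3, 22.6 and 20.1 CPM in the fusion livers. The groups did not overlap, although control 2 and fusion 9 lay close together. The log2 fold change of 0.53 ± 0.18 (SE) missed the threshold (edgeR adjusted p = 0.0813). DESeq2, which called 18.4% of all genes, called it and Slbp too (adjusted p = 0.0495 and 0.0471). Pole2, the second subunit of the leading strand polymerase, also did not overlap, at 12.1 to 16.3 CPM in controls and 16.6 to 17.9 CPM in fusion livers, with a log2 fold change of 0.23 ± 0.12 (SE; adjusted p = 0.226, edgeR).

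The single-strand binding and lagging strand genes were near 0, with a median log2 fold change of 0.02. Fen1, which trims Okazaki fragments, was at 108 ± 23.6 CPM (SD, n = 5) in controls and 118 ± 16.8 CPM (SD, n = 4) in fusion livers. Of its exonic bases, 84.2% also lie in exons of Tmem258 or Gm10143 on the other strand, and whether counting used strand is not stated, so reads of these genes cannot be told apart. The same holds for 67.3% of Gins2, which overlaps Gse1, and 52.5% of Chaf1a, which overlaps Ubxn6. The other members share at most 15.1%. Rpa2, of the single-strand binding complex, reached 157 and 158 CPM in control 1 and 2 and 123 and 125 CPM in fusion 8 and 9, while the low-ribosomal livers ranged from 64.4 to 92.8 CPM. Its level thus went with the ribosomal split, which in the controls cannot be told apart from Xist.

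All 5 genes of nucleotide supply had a higher mean in fusion livers, with log2 fold changes of 0.11 to 0.37, and edgeR and DESeq2 each called 0 of them (1 at an unadjusted p under 0.05 in both tools). Rrm1, the large subunit of ribonucleotide reductase, was at 204, 215, 132, 169 and 158 CPM in the controls and 244, 217, 247 and 196 CPM in the fusion livers. Fusion 9 lay below control 1 and 2, and the log2 fold change was 0.37 ± 0.16 (SE; adjusted p = 0.152, edgeR). Rrm2, the small subunit that limits the enzyme in S phase, was at 241 ± 34.6 CPM (SD, n = 5) in controls and 290 ± 74.8 CPM (SD, n = 4) in fusion livers. Fusion 8, at 393 CPM, was the highest library, and fusion 6 and 7 lay within the control range.

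Ezh2, the methyltransferase of Polycomb complex 2 and an E2F target (ENSMUSG00000029687, chr6:47530139-47595341, minus strand, mm10), was at 42.9, 44.8, 39.4, 45.2 and 37.8 CPM in control 1 to 5 and at 55.8, 58.6, 61.0 and 52.9 CPM in fusion 6 to 9. All fusion livers lay above all controls. Its log2 fold change was 0.44 ± 0.10 (SE; adjusted p = 0.0163, edgeR). Slbp, which binds the stem-loop of histone mRNAs, was at 62.2 ± 15.0 CPM (SD, n = 5) in controls and 89.8 ± 17.1 CPM (SD, n = 4) in fusion livers, a log2 fold change of 0.53 ± 0.19 (SE; adjusted p = 0.0884, edgeR). Chaf1a, the large subunit of the chromatin assembly factor, had a log2 fold change of -0.09 ± 0.19 (SE).

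The pair of E2F genes differed in sign. E2f1, an activator of S phase genes, was at 108, 105, 59.3, 63.1 and 62.0 CPM in control 1 to 5 and at 49.9, 72.4, 72.1 and 70.2 CPM in fusion 6 to 9. Control 1 and 2 stood above all other livers, fusion 6 was the lowest, and the log2 fold change was -0.26 ± 0.22 (SE; adjusted p = 0.456, edgeR). E2f8, a repressor of the same targets, had a log2 fold change of 0.38 ± 0.16 (SE; adjusted p = 0.141, edgeR), and its highest library was fusion 8, at 55.6 CPM.

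The members' levels varied more among the control livers than among the fusion livers. Control 3 was the lowest of the 9 libraries for 26 of the 44 members, and the highest library was a fusion liver for 26, control 1 for 11 and control 2 for 7. Per gene, the SD of log2 levels was larger in controls for 32 of the 44 members, with medians of 0.22 in controls and 0.16 in fusion livers. Over all tested genes the controls had the larger SD in 51.1%. Without control 3 the members' median log2 fold change was 0.08, with 30 of 44 higher.

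The size of the difference was not the same in the sets of libraries. In the high-ribosomal set 23 of 44 members were higher in fusion livers, with a median of 0.03, and edgeR called 3 higher (Mcm4, Orc1 and Slbp) and 4 lower (E2f1, Rfc2, Chaf1a and Pold1), beside 10.2% of all genes called higher and 9.8% called lower. In the low-ribosomal set 39 of 44 were higher, with a median of 0.22, and edgeR called 6, all higher (Rrm1, Ezh2, Cdc45, Pola1, Slbp and Cdc6), beside 10.6% of all genes called higher. The difference between the sets was not tested. In the low-ribosomal set the log2 fold change of Ezh2 was 0.49 ± 0.11 (SE; adjusted p = 0.0158, edgeR), and in the high-ribosomal set it was 0.39 ± 0.14 (SE; adjusted p = 0.0737, edgeR).

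Mcm4 had log2 fold changes of 0.66 ± 0.14 (SE; adjusted p = 0.011, edgeR) in the high-ribosomal and 0.41 ± 0.14 (SE; adjusted p = 0.0594, edgeR) in the low-ribosomal set. Cdc6 had 0.42 ± 0.16 and 0.48 ± 0.14 (SE; adjusted p = 0.0867 and 0.0409, edgeR). Slbp had 0.64 ± 0.14 and 0.55 ± 0.15 (SE; adjusted p = 0.0143 and 0.0291, edgeR), so it passed in both sets although not over all 9 livers. With the set as a covariate edgeR called 7 members, all higher: Slbp, Ezh2, Mcm4, Cdc6, Pcna, Pola1 and Rrm1. In that fit 32.6% of all genes were called.

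The levels of further cell cycle genes are set beside those of the 44. Of 43 further replication genes, all tested, 31 had a log2 fold change above 0, with a median of 0.16, and 3 rose, beside 5.99% of all tested genes called higher: Dbf4, the activator of the kinase that fires origins (0.53), Usp1, which removes ubiquitin from PCNA (0.48), and Rpa3, the small RPA subunit (0.75; edgeR adjusted p = 0.0256, 0.0364 and 0.0472). Of 26 mitosis genes 22 had a log2 fold change above 0, with a median of 0.27. Ect2, Bub1 and Ccnb1 rose (edgeR adjusted p = 0.0196, 0.0245 and 0.0280), again beside 5.99% of all tested genes called higher. DESeq2 called 7 further replication genes and 7 mitosis genes, all higher, beside 18.4% of all genes called in either direction. With the library set as a covariate edgeR called 8 and 11, all higher, beside 32.6% of all genes called in either direction. In the high-ribosomal set alone the mitosis median was 0.07, with 15 of 26 higher, and edgeR called 6 higher and 2 lower. In the low-ribosomal set alone the mitosis median was 0.40, with 26 of 26 higher, and edgeR called 12, all higher. Of all genes, 10.2% were called higher and 9.8% lower in the high-ribosomal set, and 10.6% higher in the low-ribosomal set. Of 28 tested regulators of the G1 to S step, 3 rose and 1 fell, beside 5.99% of all tested genes called higher and 6.81% called lower. The inhibitor Cdkn1a, which encodes p21, fell by 1.00 ± 0.16 on the log2 scale (SE; adjusted p = 0.00267, edgeR). The pocket protein genes Rb1 and Rbl1 rose by 0.43 and 0.51 (edgeR adjusted p = 0.0281 and 0.0318). The cyclin gene Ccne2 rose by 0.67, with overlapping groups (edgeR adjusted p = 0.0402).

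Dividing blood cells are a large part of the fetal liver, and markers of these and other cell types were read beside the replication genes. Of 14 tested erythroid markers 7 had a log2 fold change above 0, with a median of -0.02, and edgeR and DESeq2 called 0 of them (0 and 1 at an unadjusted p under 0.05). The library sets differed. In the high-ribosomal set 4 of the 14 erythroid markers were higher, with a median of -0.14. In the low-ribosomal set, where more replication genes were higher, 11 of 14 were higher, with a median of 0.20. The 4 globin genes of the list (Hba-a1, Hba-a2, Hbb-bs and Hbb-bt) were not analysed here in the embryos and are part of the tumour sums, so the sums of the experiments cover different genes. Summed erythroid levels were 4149 to 6612 CPM in controls and 5016 to 5734 CPM in fusion livers. Control 3, with the lowest levels of many replication genes, had the lowest erythroid sum. The same liver had the highest sum of other blood markers, 5228 CPM, beside 3375 to 4668 CPM in fusion livers. Among 14 markers of other blood cells 5 had a log2 fold change above 0, with a median of -0.17, and edgeR called 0 (2 higher and 2 lower at an unadjusted p under 0.05) and DESeq2 1. Of 13 tested hepatocyte markers 3 had a log2 fold change above 0, with a median of -0.32. Cps1, of the urea cycle, and the fetal serum protein gene Afp rose, by 0.85 and 0.86, and the apolipoprotein gene Apoa1 fell by 0.89 on the log2 scale (edgeR adjusted p = 0.0115, 0.0178 and 0.0382). DESeq2 called 2 hepatocyte markers higher and 6 lower, beside 18.4% of all genes called in either direction. In edgeR 5.99% of all genes were called higher and 6.81% lower. Of 14 markers of stroma and endothelium 5 had a log2 fold change above 0, with a median of -0.07, and the collagen genes Col1a1 and Col1a2 fell by 0.80 and 0.57 on the log2 scale (edgeR adjusted p = 0.0227 and 0.0467). The part of these cell types in the replication gene levels was not tested.

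The second comparison asks how the replication genes stand in tumours after palbociclib, 4 days off the drug being part of the schedule. Of the 44 genes 41 had a mean of at least 1 CPM and were tested, and 36 of the 41 had a higher mean in palbociclib tumours. Their median log2 fold change was 0.48 on the log2(CPM + 1) scale, beside 0.14 for all 12829 tested genes, 68.8% of which were higher. No member passed the adjusted threshold in limma (0 of 41, smallest adjusted p = 0.953), and 0.0% of all genes did. At an unadjusted p under 0.05, 10 members were higher and 0 lower in limma, against 3.73% of all genes higher and 0.842% lower. That count fell to 6 of 41 with TMM factors, beside 683 of all 12829 genes in either direction. It was 6 of 41 with totals without mitochondrial genes, beside 642 of 12813. With erythroid marker genes also left out of the totals it was 4 of 41, beside 645 of 12801. On reads recovered from the CPM values it was 5 of 43 in edgeR, beside 773 of 14367, and 6 of 44 in DESeq2, beside 1014 of 17606. In limma-voom 3 of 43 were higher and 2 lower, beside 1216 of 14367. On those reads edgeR and limma-voom called 0 genes and DESeq2 8 genes, none of them a member. Gins1 and Prim2 were higher in every palbociclib tumour than in every vehicle tumour, against 0.834% of all genes (0.101% lower).

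The low levels set a limit. The 44 genes took 0.0331% to 0.0581% of the reads in the tumours, and 0.269% to 0.359% in the embryo livers, in tables that were made and normalised separately, so these shares were not tested against each other. The licensing genes Orc1 and Cdc6 were at 0 to 0.96 CPM and 0 to 1.95 CPM, where a count of 3 is worth 0.0695 to 1.01 CPM depending on the library. Fen1 was listed at 0 in 7 of the 10 tumours and at 0.354, 0.389 and 0.322 CPM in vehicle 1 and palbociclib 2 and 5, with at most 15 reads. As in the embryos, how reads were counted where Fen1 overlaps Tmem258 is not stated. Cdt1, which with Orc6 was tested among the licensing factors, was at 11.5, 11.2, 11.1, 9.69 and 8.12 CPM in vehicle 1 to 5 and at 10.2, 12.7, 5.78, 15.3 and 10.8 CPM in palbociclib 1 to 5. Its log2 difference of 0.03 ± 0.29 (SE) turned negative under other scalings (-0.11 with TMM factors).

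Among the genes of nucleotide supply, Rrm2, the S phase subunit of ribonucleotide reductase, was at 8.59, 19.9, 24.0, 8.16 and 19.6 CPM in vehicle 1 to 5 and at 42.9, 35.1, 28.1, 23.5 and 22.9 CPM in palbociclib 1 to 5. Vehicle 3 lay above palbociclib 4 and 5, and the other vehicle tumours lay below all palbociclib tumours. The log2 difference was 0.97 ± 0.32 (SE; adjusted p = 0.953, limma). Tyms, thymidylate synthase, was at 7.97, 9.59, 20.9, 8.68 and 17.6 CPM in vehicle and 25.2, 35.03, 24.7, 13.6 and 20.2 CPM in palbociclib tumours, a log2 difference of 0.86 ± 0.32 (SE). Vehicle 3 and 5 overlapped the palbociclib range. Rrm1 was at 10.6 ± 1.72 CPM and 17.8 ± 4.39 CPM (SD, n = 5 each), with palbociclib 5 at 10.7 CPM within the vehicle range. All 5 genes of this role had a higher mean in palbociclib tumours, also with TMM factors and with totals that leave out mitochondrial genes.

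**Figure D3:**
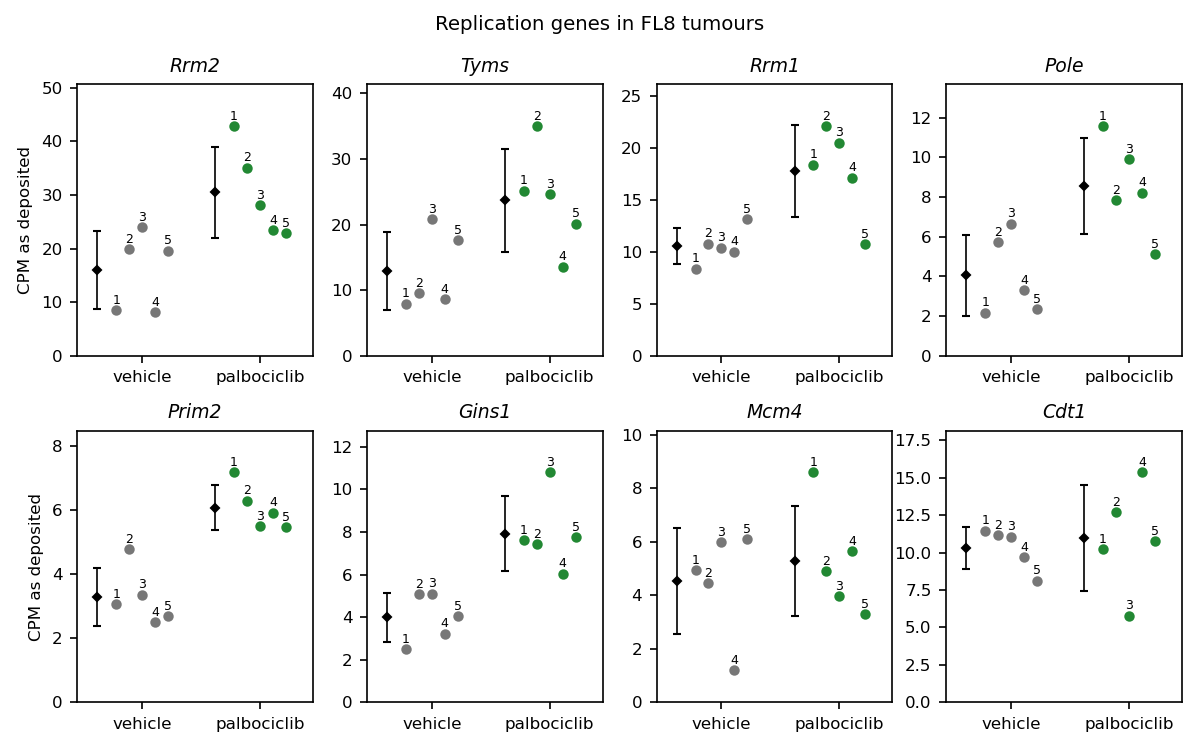
Level of 8 replication genes in each FL8 tumour, in CPM as deposited, with tumour numbers beside the points and, at the left of each group, the mean and SD (n = 5 each). Prim2 and Gins1 do not overlap between the groups, Rrm2, Tyms, Rrm1 and Pole overlap in part, and Mcm4 and Cdt1 overlap widely.

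Of the 11 helicase genes 10 had a higher mean in palbociclib tumours and 4 had an unadjusted p under 0.05 in limma, beside 3.73% of all genes that were higher at that p. With TMM factors, with totals without mitochondrial genes, and in edgeR, DESeq2 and limma-voom on recovered reads it was 1 of 11. The counts of all genes at that p in these fits are given above. Gins1, of the complex that joins CDC45 and the ring in the active helicase, was at 2.51, 5.08, 5.11, 3.23 and 4.06 CPM in vehicle 1 to 5 and at 7.62, 7.42, 10.8, 6.05 and 7.76 CPM in palbociclib 1 to 5. The groups did not overlap, and the log2 difference was 0.85 ± 0.29 (SE; adjusted p = 0.953, limma). Gins2, Mcm5 and Mcm7 had differences of 0.84, 0.76 and 0.59. The ring subunits were again uneven: Mcm2 had a difference of -0.03 ± 0.27 (SE) and Mcm4 one of 0.24 ± 0.37 (SE). Mcm4 was at 1.21 CPM in vehicle 4 and at 3.30 to 8.59 CPM in the other 9 tumours. Cdc45 was at 1.86 ± 0.674 CPM and 2.68 ± 1.23 CPM (SD, n = 5 each), with a difference of 0.32 ± 0.35 (SE).

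The primase and polymerase genes held both ends of the range. Prim2, the large primase subunit, was at 3.07, 4.79, 3.37, 2.504 and 2.71 CPM in vehicle 1 to 5 and at 7.19, 6.31, 5.51, 5.93 and 5.47 CPM in palbociclib 1 to 5. The groups did not overlap, and the log2 difference was 0.74 ± 0.29 (SE; adjusted p = 0.953, limma). Pole, the catalytic subunit of the leading strand polymerase, was at 2.19, 5.74, 6.67, 3.31 and 2.37 CPM in vehicle and 11.6, 7.86, 9.92, 8.23 and 5.11 CPM in palbociclib tumours, a difference of 0.97 ± 0.34 (SE). Palbociclib 5 lay below vehicle 2 and 3. Pole2, its partner subunit, had the lowest difference of the members, -0.46 ± 0.44 (SE), at 0 to 3.38 CPM over the 10 tumours. Pola1 had 0.59 ± 0.31 (SE) and Pola2, of the same complex, -0.18 ± 0.27 (SE).

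Pcna was at 33.6 to 69.4 CPM in vehicle and 41.6 to 64.2 CPM in palbociclib tumours, so the vehicle range enclosed the palbociclib range, with a log2 difference of 0.23 ± 0.24 (SE). Of the clamp loader genes Rfc3 had the lowest value, at 14.2 ± 4.99 CPM and 11.6 ± 2.25 CPM (SD, n = 5 each), a difference of -0.20 ± 0.31 (SE). Ezh2 was at 4.99, 6.17, 3.72, 2.54 and 1.69 CPM in vehicle and 5.22, 7.55, 8.75, 6.37 and 4.63 CPM in palbociclib tumours. Its difference was 0.69 ± 0.33 (SE; adjusted p = 0.953, limma). E2f1 was at 8.66 ± 3.03 CPM and 12.2 ± 3.04 CPM (SD, n = 5 each), a difference of 0.48 ± 0.30 (SE). Chaf1a was at 2.94 ± 1.35 CPM and 4.85 ± 2.16 CPM (SD, n = 5 each), a difference of 0.54 ± 0.37 (SE).

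How far the groups lay apart depended on the scaling of the libraries. Summed over the 41 tested genes, the level was 330, 435, 494, 347 and 435 CPM in vehicle 1 to 5 and 560, 578, 545, 519 and 474 CPM in palbociclib 1 to 5, so that vehicle 3 and palbociclib 5 overlapped. With totals that leave out mitochondrial genes vehicle 1 stood at 618 CPM, the highest of the 10 tumours. As deposited it was the lowest tumour for 14 of the 41 genes, and without mitochondrial reads in the total it was the lowest for 1 and the highest for 10. Vehicle 4 was low on both scales, the lowest tumour for 13 and 18 of the genes.

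**Figure D4:**
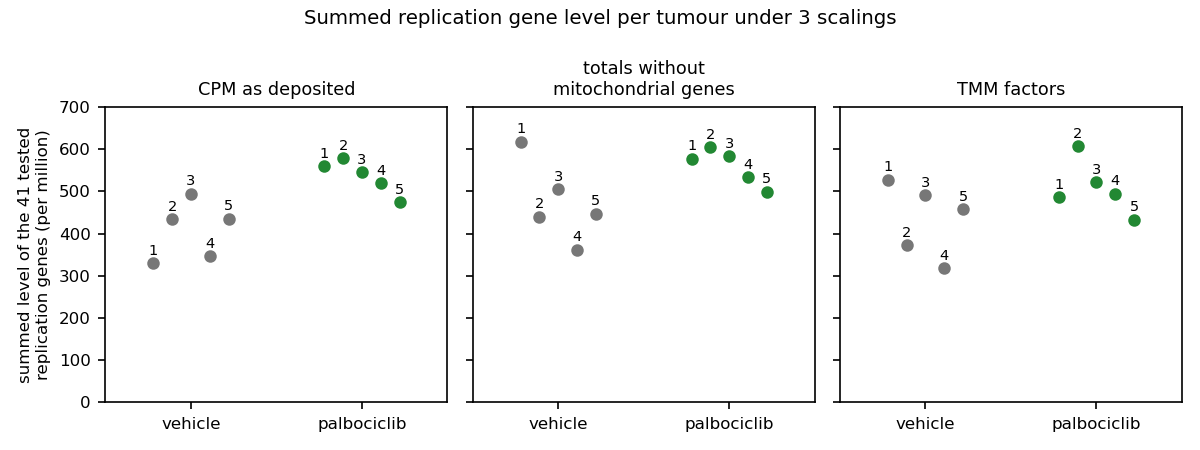
Summed level of the 41 tested replication genes in each tumour, as deposited CPM, as CPM of reads without mitochondrial genes, and with TMM factors, with tumour numbers beside the points. Vehicle 1 moves from the lowest value as deposited (330) to the highest without mitochondrial genes (618), while vehicle 4 stays lowest or next to lowest.

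The members' median shrank with the scale but stayed above that of all genes. It was 0.33 with TMM factors and 0.34 with totals without mitochondrial genes, where the medians of all genes were 0.00 and 0.01, with 34 of 41 members higher in both. The share of all genes that were higher was 50.1% and 51.4% there, beside 68.8% as deposited. Gins1 and Prim2 also did not overlap with totals without mitochondrial genes, against 0.617% of all genes (0.281% lower). Slbp, like Cdt1, changed sign, from 0.06 to -0.08 with TMM factors.

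Erythroid marker levels also differed in their means between the groups, and their part in the replication gene levels was not tested. Of 12 tested markers 11 had a lower mean in palbociclib tumours, with a median log2 difference of -1.59 (0 called in limma, edgeR and DESeq2). In limma 5 were lower at an unadjusted p under 0.05, beside 0.842% of all genes. In DESeq2 on recovered reads 17 were tested and 0 were higher, with a median of -2.66. There 10 were lower at an unadjusted p under 0.05, beside 1014 of 17606 genes in either direction. Vehicle 3 carried the most of them, and none of the 17 measured markers was at 0 in every tumour. The hepatocyte markers had a median difference of 0.41 as deposited, with 11 of 13 higher and 0 called in limma, edgeR and DESeq2 (0 at an unadjusted p under 0.05 in each). In DESeq2 on recovered reads their median was 0.19, with 10 of 13 higher. With both mitochondrial and erythroid marker genes left out of the totals, 33 of 41 members were higher, with a median of 0.30.

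The same tumours had larger differences in the means of mitosis genes, set beside the replication genes here without a test between the lists. All 26 mitosis genes had a higher mean in palbociclib tumours, with a median log2 difference of 1.19. In limma 23 had an unadjusted p under 0.05, beside 3.73% of all genes higher and 0.842% lower at that p. Limma called 0 of the 26 and DESeq2 called 1, beside 8 of all 17606 genes. In 4 of the 26 each palbociclib tumour exceeded each vehicle tumour, against 0.834% of all genes. Summed mitosis levels were 136 to 466 CPM in vehicle and 431 to 947 CPM in palbociclib tumours. Vehicle 3 and 5 lay above palbociclib 4, and vehicle 1 (136 CPM) and vehicle 4 (159 CPM) were lowest. With TMM factors the median was 1.04, and all 26 were again higher. Kif20a, a kinesin of cell division, had a difference of 1.64 ± 0.35 (SE), and Top2a and Ccnb1 had differences of 1.19 ± 0.31 and 1.52 ± 0.39 (SE; limma adjusted p = 0.953 for each of the 3). Of 41 tested further replication genes 29 were higher, with a median of 0.18, which was 0.02 with TMM factors, where 21 were higher. Asf1b, Rnaseh2b and Recql4 had the smallest p among them, with differences of 1.00, 0.90 and 0.99 (limma adjusted p = 0.953 for each). Of 29 tested regulators of the G1 to S step 20 were higher, with a median of 0.17, close to the 68.8% and 0.14 of all genes, and with TMM factors 16 were higher, with a median of 0.02. Among them Ccnd1, which encodes the cyclin D1 partner of the drug's target kinases, had a difference of 0.87 ± 0.29, Ccna2, a cyclin of S phase, 1.13 ± 0.34, and the inhibitor Cdkn2d 1.27 ± 0.46 (SE; limma adjusted p = 0.953 for each).

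**Figure D5:**
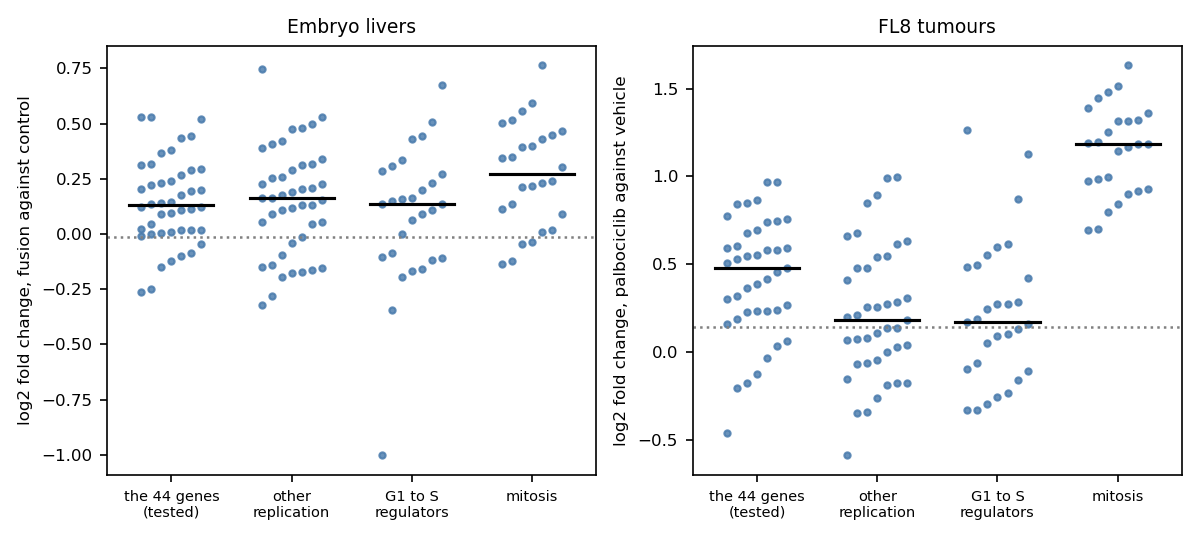
Log2 fold change of each tested gene of the replication set and of 3 further lists, in embryo livers (left) and FL8 tumours (right). Bars are list medians and the dotted line is the median of all tested genes. The medians in livers lie between 0.13 and 0.27, and in tumours at 0.48 for the 44 genes and 1.19 for the mitosis genes.

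The comparisons share no samples. Of the 41 genes tested in both, 28 had a log2 fold change above 0 in both fusion livers and palbociclib tumours, 4 were higher in fusion livers and lower in palbociclib tumours, 8 the reverse, and 1 (Rfc2) was lower in both. Mcm4, which rose in fusion livers, had a tumour difference of less than its standard error, and Rrm2, with the second highest tumour difference, had a liver log2 fold change of 0.27 ± 0.18 (SE; adjusted p = 0.359, edgeR). By promoter motif the members' medians lay close together. The 15 genes with an E2F match had a median log2 fold change of 0.11 in fusion livers, beside 0.17 for the 23 genes without, and in tumours the medians were 0.55 (13 genes) and 0.44 (22 genes). Members with no promoter window, Mcm4 among them, are in neither group.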

How the data were processed

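RNA was sequenced from 9 embryo livers (poly-A RNA) and 10 tumours (total RNA). Embryo values are raw counts for each gene symbol as the authors deposited them, per the file headers. The submitters' processing notes name STAR 2.5.1b, mm10 and DESeq2 for them. The 9 columns of scaled fragments in the embryo table were not used. Tumour values are the authors' deposited CPM, per the file headers, and the submitters' processing notes name cutadapt 2.10, HISAT2, featureCounts, mm10, DESeq2 and R 4.1.2. Whether counting used strand is not given in the sources used here. All tumour values (100%) were whole multiples of 1 read (tolerance 0.01 reads), so reads were recovered for count tests as alternatives. GENCODE M21 gave symbols for 17469 of 17606 tumour IDs and the positions of the genes.

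Embryo counts were tested with edgeR 4.0.16 (R 4.3.3; quasi-likelihood test, TMM factors, filterByExpr) and tumours with limma 3.58.1 (trend) on log2(CPM + 1), a scale that understates fold changes of weakly expressed genes. Tumour genes under a mean of 1 CPM were left out. The Benjamini-Hochberg adjustment ran over every gene of a fit, with a threshold of 0.05. Embryo levels in the text are CPM after TMM scaling. Numbers 1 to 9 and 1 to 5 are those of the labels.

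The members and all lists were chosen with earlier results of these data known. Named genes were 12 given members, the members past the threshold (or, with fewer than 5 of these, also the 6 with the smallest p), the 3 highest and 3 lowest log2 fold changes per comparison, and the 3 smallest p of each other list. Other members were named after their values were seen. On simulated data with 100 genes changed 2-fold and 100 changed 4-fold, the embryo fit (13285 genes) recovered 90 and 100 of them with 9 false calls among 199, and the tumour fit (12820 genes) 6 and 65 with 7 false calls among 78. The genes changed there had a mean of at least 5 CPM, and all genes were given the same spread, so the recovery does not cover weaker members. Alternatives were other scalings, filters and pseudocounts, DESeq2 1.42.0, limma-voom, covariates for the library set and Xist, each library left out, and a replicate block. Floors of 3 reads cover counting error only, since the labels name no molecular identifiers.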

Additional observations from a re-analysis of the deposited data

Results flagged for a closer look

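Of 96 groups of values screened, 7 held a library far from the others by Dixon's ratio, where chance flags about 1 in 20. Fusion 6 had 49.9 CPM of E2f1, beside 70.2 to 72.4 CPM in the other fusion livers, and the most reads, 45.6 M beside 13.5 to 16.4 M. Among vehicle tumours, vehicle 1 was alone in having reads of Fen1, at 0.354 CPM. It also had 46.6% mitochondrial reads, beside 1.24% to 4.12% in the other vehicle tumours, and a summed hepatocyte marker level of 41275 CPM, beside 100115 to 117403 CPM. Palbociclib 1 had 15.6 CPM of Rfc3, beside 10.4 to 10.95 CPM in its group, and palbociclib 3 had 10.9 CPM of Pola2, beside 7.73 to 8.44 CPM.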

How the results depend on the processing

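In the embryo livers 5 members were called with DESeq2 and 7 with the library set as a covariate, all higher, beside 3 over all livers. Within the high-ribosomal set 7 were called (3 higher and 4 lower), and within the low-ribosomal set 6, all higher. The calls over all genes were 4345, 2589 and 2950 in the last 3 of these fits, beside 1704. Members higher were 23 of 44 within the high-ribosomal set. There Cdt1 (-0.032), Cdc45 (-0.049) and Fen1 (-0.0036) turned negative, and Chaf1a was 0.23 within the low-ribosomal set. With Xist as a covariate Cdc6 lost its call (0.41, edgeR adjusted p = 0.0834), and 30 of 44 members were higher, with a median of 0.09, beside 35 and 0.13. Leaving out each liver gave 969 to 1581 genes and 2 to 3 members called, 30 to 41 members higher and medians of 0.08 to 0.17. The count of all genes fell by over 1.5 times without control 3 (969), fusion 7 (1107) or fusion 8 (987). Log2 fold changes ranged from -0.16 to 0.088 for Chaf1a and from -0.26 to 0.030 for Rpa2. The cause was not tested.

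In the tumours 19 of 22 members were higher at a filter of 10 CPM, which tests fewer genes, and DESeq2 called 8 genes. Cdt1 was -0.11 with TMM factors, -0.10 with totals without mitochondrial genes, -0.11 in edgeR, -0.13 in DESeq2, -0.015 without vehicle 1 and 5 and -0.15 with erythroid markers also left out of the totals, a setting chosen after seeing the data. Mcm4 was -0.019 in DESeq2. Leaving out each tumour gave 0 calls, 34 to 37 members higher, medians of 0.40 to 0.53, and ranges of -0.092 to 0.23 for Cdt1 and -0.067 to 0.36 for Mcm4. The replicate block, tried because vehicle and palbociclib tumours share the numbers 1 to 5, gave 0 calls and 6 members at an unadjusted p under 0.05, beside 10. Over all 12829 genes 460 were under that p with the block, beside 586 without it. Same-numbered tumours deviated with correlations of -0.32 to 0.00, and 0 of 5 vehicle tumours correlated best with their own number. The labels do not say what the numbers share, and so few correlations cannot decide whether tumours were paired. Embryos share no numbers. In tumours the simulated 2-fold changes were mostly missed, so a missing call at this spread does not show that a gene did not change.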
